A study of Rattus norvegicus with 9 samples.

Results

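The genes described here are 10 members of the innate immune sensing machinery, followed across 3 ages in cultured rat cardiac fibroblasts. They were chosen by name, with earlier results of these data known. The set holds the Toll-like receptors Tlr2, Tlr3, Tlr4, Tlr7 and Tlr8 and the co-receptors Cd14 and Ly96. It also holds the adaptor Myd88 and the inflammasome genes Nlrp3 and Casp1. All 10 were found among the 17337 genes of the deposited count table, and all 10 were among the 11337 genes with enough counts to be tested. The series compared cardiac fibroblast cultures from Sprague Dawley rats at embryonic day 18 (fetal), postnatal day 1 (neonatal) and 7 weeks (adult), with 3 libraries at each age. No genetic change or drug treatment is named for any group, and all groups share growth at passage 0 to confluency in flasks, in DMEM with antibiotics, fetal bovine serum and ascorbic acid. No sorting step is named, so RNA of any cell type that grew or survived in the flask is part of each value. The labels do not say whether the 3 libraries of an age came from separate animals or separate cultures, nor how many hearts were pooled, so p-values measure only the spread between these libraries, which may be technical.

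Toll-like receptors are membrane proteins that bind microbial lipids or nucleic acids, and some molecules of damaged host cells, and signal through an intracellular TIR domain. Tlr2 (lipopeptides) and Tlr4 (lipopolysaccharide) act at the cell surface, where Cd14 hands over the ligand and Ly96, also called MD-2, completes the Tlr4 receptor, while Tlr3, Tlr7 and Tlr8 read RNA inside endosomes. Myd88 links all of these receptors except Tlr3 to NF-kB, and Nlrp3 is a cytoplasmic sensor that assembles with the adaptor Pycard to activate caspase-1, the product of Casp1, which matures interleukin-1 beta and interleukin-18. Macrophages carry this machinery at high levels, and cardiac fibroblasts are known to carry parts of it, among them Tlr4.

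Library totals ran from 13392825 to 22850491 assigned counts. Levels below are counts per 1000000 assigned counts (CPM) with library sizes scaled by the TMM method. Fetal replicate 3 stood apart from the other fetal libraries, at a distance of 77.5 and 77.1 in log2 CPM over the genes tested. Fetal replicates 1 and 2 were 24.7 apart. The changes of the 10 genes, and of some of the gene groups, against fetal cultures are therefore also given without fetal replicate 3. Of 11 fibroblast marker genes, Col1a2 had a mean under 1 CPM at every age, a count that may not stand for its expression, since cardiac fibroblasts are known to express it strongly, while the other 10 had means of at least 11.8 CPM at each age. The 8 cardiomyocyte markers summed to 6368 to 9792 CPM in fetal, 4713 to 5234 in neonatal and 304 to 318 in adult libraries. Nearly all of the adult sum was Tnnt2, with a mean of 309.6 CPM. No other marker of these had an adult mean above 0.565 CPM (Actn2). The 15 macrophage markers summed to 7.85, 8.70 and 66.6 CPM in fetal replicates 1 to 3, to 157.5 to 173.3 in neonatal and to 4554 to 6387 in adult libraries. Their sum thus rose with age in both steps, as did most but not all of the genes described here. The 8 endothelial markers also rose in sum without overlap, from 8.26 to 9.48 CPM in fetal over 17.4 to 20.8 in neonatal to 82.1 to 96.6 in adult libraries. Most of the adult sum was 1 gene, Tie1, with a mean of 1.80 CPM in neonatal and 70.4 in adult libraries. From neonatal to adult, 4 of the 6 tested were called higher and 2, Kdr and Tek, lower (all genes: 31.6% and 31.8%). The part of endothelial cells was not tested. In cultures of mixed cells, more cells of a type and more RNA per cell cannot be told apart.

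The regions around the start sites of 9 of the 10 genes were taken from RefSeq (build GRCr8, 250 bases before to 50 bases after the start). They are shown for 4 of these genes. Cd14, Tlr2 and Tlr4 were called higher at each later age, as were Tlr7, Myd88 and Casp1, which are not shown. Tlr3 was called higher in neonatal than in fetal cultures but not in adult than in neonatal ones. Capitals mark matches to the motifs that a search of both strands found. Cd14 (chr18:28611109-28611408 on the minus strand) holds the purine-rich core AGAGGAAG of PU.1, a transcription factor of myeloid cells, from base -106 relative to the start. Tlr4 (chr5:85160997-85161296 on the plus strand) holds the same core on the opposite strand from base -68. Tlr2 (chr2:171504508-171504807 on the minus strand) holds GGNNTTNCC, an NF-kB pattern, on both strands in overlapping matches from bases -205 and -204. It also holds AAANNGAAA, an interferon-response pattern, on the opposite strand from base -238. Tlr3 (chr16:53554666-53554965 on the plus strand) holds the interferon-response pattern on the opposite strand from base -237.
Cd14: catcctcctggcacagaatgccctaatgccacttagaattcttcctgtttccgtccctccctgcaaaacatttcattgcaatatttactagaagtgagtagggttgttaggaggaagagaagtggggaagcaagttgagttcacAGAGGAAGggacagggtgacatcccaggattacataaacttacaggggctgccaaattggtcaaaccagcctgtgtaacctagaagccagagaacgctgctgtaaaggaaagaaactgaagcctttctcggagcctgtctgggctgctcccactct
Tlr4: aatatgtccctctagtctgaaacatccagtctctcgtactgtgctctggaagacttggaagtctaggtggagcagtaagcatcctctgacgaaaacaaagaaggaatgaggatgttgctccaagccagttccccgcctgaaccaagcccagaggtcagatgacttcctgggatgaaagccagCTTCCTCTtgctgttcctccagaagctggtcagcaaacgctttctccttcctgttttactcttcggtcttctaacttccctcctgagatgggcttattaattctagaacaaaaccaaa
Tlr2: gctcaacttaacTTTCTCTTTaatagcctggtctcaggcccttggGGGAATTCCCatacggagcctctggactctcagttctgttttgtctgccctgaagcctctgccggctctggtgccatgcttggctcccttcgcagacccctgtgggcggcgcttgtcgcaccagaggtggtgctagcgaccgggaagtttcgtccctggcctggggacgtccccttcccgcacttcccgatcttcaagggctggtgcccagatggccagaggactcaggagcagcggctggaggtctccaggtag
Tlr3: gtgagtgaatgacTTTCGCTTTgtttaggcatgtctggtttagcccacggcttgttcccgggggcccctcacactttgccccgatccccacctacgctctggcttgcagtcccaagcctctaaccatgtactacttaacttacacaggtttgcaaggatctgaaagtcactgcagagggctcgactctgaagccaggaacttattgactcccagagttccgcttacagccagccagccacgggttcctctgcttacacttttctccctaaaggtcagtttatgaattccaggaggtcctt
Among all 33365 RefSeq promoters of this length, AGAGGAAG was present in 4.39%, GGNNTTNCC in 16.1% and AAANNGAAA in 11.8%. Of the 9 genes with a sequence, AGAGGAAG occurred in 2 (Cd14 and Tlr4, both shown). GGNNTTNCC occurred in 3 (Tlr2, Tlr7 and Tlr8) and AAANNGAAA in 4 (Tlr2, Tlr3, Myd88 and Casp1). A second PU.1 core, GAGGAAGT (2.42% of promoters, sharing 7 bases with the first), and the AP-1 pattern TGACTCA (4.64%) occurred in none of the 9. A match says only that these letters are present in the window.

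Across the 10 genes, 8 passed the test as higher in neonatal than in fetal cultures, against 18.3% of all 11337 genes tested. All 10 were higher in adult than in fetal cultures, against a background of 34.9%, and 9 were higher in adult than in neonatal cultures, against 31.6%. The genes were chosen with earlier results of these data known, so these counts describe the set and do not test it. Tlr7, Tlr8 and Casp1 passed the filter only because of the later ages. None of the 10 was called lower in any pair of ages, where the background shares of genes called lower were 18% (neonatal against fetal), 35.5% (adult against fetal) and 31.8% (adult against neonatal). The median log2 fold change of the 10 genes was 1.07 from fetal to neonatal, 3.93 from fetal to adult and 3.41 from neonatal to adult, where the median over all genes tested was -0.01 each time. Below, the change from fetal to neonatal cultures is called the first step and that from neonatal to adult cultures the second step. The 3 comparisons share libraries pairwise, so they are not independent of one another. Non-overlap, meaning that every library of the later age lay above every library of the earlier age, was seen for 8, 10 and 9 of the 10 genes in the same order, and for 29.2%, 35.9% and 37.6% of all genes tested.

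**Figure D1:**
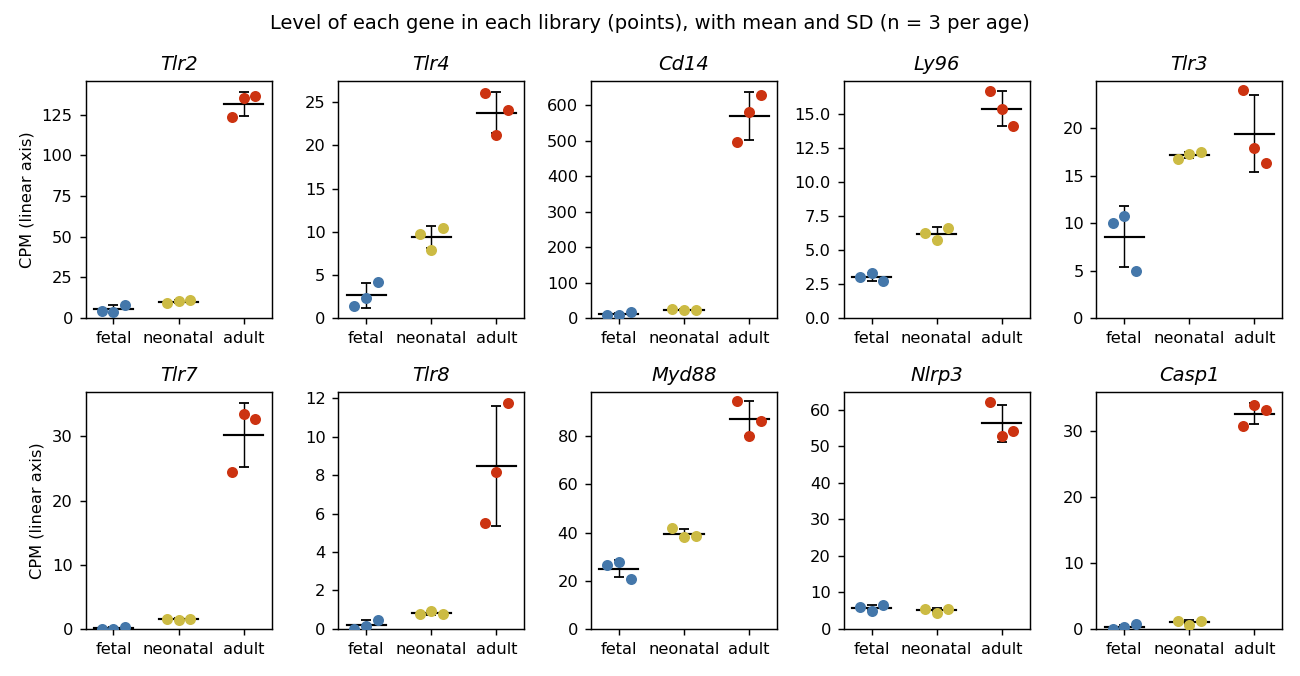
Level of each of the 10 genes in each library (points, CPM on a linear axis that starts at 0 and differs between panels), with mean and SD over 3 libraries per age. The adult points lie above all fetal points in each of the 10 panels, and Tlr3 is the only panel in which neonatal and adult points overlap.

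The surface receptors were low in fetal and neonatal cultures and higher in adult ones. Tlr2 (rn6 chromosome 2, 182840726 to 182846061, minus strand) was at 4.21, 3.97 and 8.34 CPM in the fetal, 9.08, 10.5 and 10.9 CPM in the neonatal and 123, 135 and 137 CPM in the adult libraries. The 3 ages did not overlap, although fetal replicate 3 lay close to the lowest neonatal library. From fetal to neonatal cultures Tlr2 rose, with a log2 fold change of 0.89 (SE 0.246) and an adjusted p of 0.0214 in edgeR's test. From neonatal to adult cultures it rose 12.9-fold, with a log2 fold change of 3.69 (SE 0.234) and an adjusted p of 2.10e-06 in edgeR's test. Tlr4 (chromosome 5, 82587424 to 82601056, plus strand), the lipopolysaccharide receptor, was at 1.40, 2.34 and 4.14 CPM in fetal, 9.69, 7.95 and 10.4 CPM in neonatal and 26, 21.2 and 24.1 CPM in adult libraries. Its ages were separated in both steps, and unlike Tlr2 its first step was the larger in point estimate. From fetal to neonatal cultures the log2 fold change was 1.83 (SE 0.306) and the adjusted p was 0.00214 in edgeR's test. From neonatal to adult cultures Tlr4 rose with a log2 fold change of 1.35 (SE 0.277) and an adjusted p of 0.00214 in edgeR's test. The difference between both steps was not tested.

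The co-receptors of Tlr4 rose with it, but to different extents. Cd14 (chromosome 18, 29560364 to 29561959, minus strand), which passes lipopolysaccharide and lipopeptides to the receptors, was at 8.53, 8.02 and 16.7 CPM in fetal, 25.7, 22.7 and 23.4 CPM in neonatal and 497, 581 and 629.8 CPM in adult libraries. No library of one age reached the range of the next. The rise from fetal to neonatal had a log2 fold change of 1.11 (SE 0.250) and an adjusted p of 0.00948 in edgeR's test. The rise from neonatal to adult cultures was 23.8-fold, with a log2 fold change of 4.57 (SE 0.266) and an adjusted p of 1.45e-06 in edgeR's test. Ly96 (chromosome 5, 1972698 to 1989448, minus strand), the lipopolysaccharide-binding subunit beside Tlr4, was at 3.02, 3.31 and 2.76 CPM in fetal, 6.27, 5.76 and 6.67 CPM in neonatal and 16.8, 15.4 and 14.2 CPM in adult libraries. Replicates of Ly96 lay close together at each age, and fetal replicate 3 was its lowest library where it was the highest for Tlr2, Tlr4 and Cd14. In the first step its log2 fold change was 1.03 (SE 0.143) and the adjusted p was 8.12e-04 in edgeR's test. In the second step Ly96 had a log2 fold change of 1.31 (SE 0.136) and an adjusted p of 3.27e-05 in edgeR's test. The exons of Ly96 in the annotation used for counting cover only 281 bases, so reads outside that stretch are not part of its value.

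Of the endosomal receptors, Tlr3 rose between fetal and neonatal cultures, while Tlr7 and Tlr8 were low in both and reached their highest level in adult ones. Tlr3 (chromosome 16, 50016857 to 50030314, plus strand), the sensor of RNA duplexes, was at 10.0, 10.8 and 4.94 CPM in fetal, 16.8, 17.3 and 17.5 CPM in neonatal and 24.0, 17.9 and 16.4 CPM in adult libraries. All neonatal libraries lay above all fetal ones, and the lowest adult library lay below every neonatal one. Between fetal and neonatal cultures it rose, with a log2 fold change of 0.99 (SE 0.259) and an adjusted p of 0.0167 in edgeR's test. Between neonatal and adult cultures no change was called, with a log2 fold change of 0.18 (SE 0.254) and an adjusted p of 0.560 in edgeR's test. Adult exceeded fetal levels 2.25-fold (edgeR adjusted p = 0.00291), the smallest adult-to-fetal change of the 10 genes.

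Tlr7 and Tlr8, both sensors of unpaired RNA strands, lie next to each other on the plus strand of chromosome X (28486929 to 28512201 and 28539158 to 28562803), with 26956 bases between them. Tlr7 had 1, 0 and 6 counts in the fetal libraries, or 0.0540, 0 and 0.319 CPM, against 1.54, 1.44 and 1.62 CPM in neonatal and 24.5, 33.4 and 32.7 CPM in adult libraries. The fetal libraries were at or close to nothing, the neonatal libraries low but even, and the adult libraries high. Tlr7 rose in the first step with a log2 fold change of 3.62 (SE 0.566) and an adjusted p of 0.00153 in edgeR's test, a value that rests on a total of few fetal counts. In the second step it rose 19.7-fold, with a log2 fold change of 4.30 (SE 0.330) and an adjusted p of 5.05e-06 in edgeR's test. Tlr8 had 0, 3 and 9 fetal counts, or 0, 0.132 and 0.478 CPM, and was at 0.771, 0.929 and 0.777 CPM in neonatal and 5.51, 8.16 and 11.8 CPM in adult libraries. Its adult libraries lay far above the earlier ones and differed among themselves. Its fetal and neonatal libraries did not overlap, but the first step was not called, with a log2 fold change of 2.01 (SE 0.708) and an adjusted p of 0.0517 in edgeR's test. In the second step it rose 10.1-fold, with a log2 fold change of 3.34 (SE 0.528) and an adjusted p of 4.40e-04 in edgeR's test. A gene entered the tests with at least 0.614 CPM in 3 libraries; no fetal library reached that level for Tlr7 or Tlr8 and 1 did for Casp1, so these genes were tested because of the later ages.

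Myd88 (chromosome 8, 128022512 to 128026581, minus strand), the common adaptor, carries the signal of Tlr2, Tlr4, Tlr7 and Tlr8 into the cell. It was at 26.4, 27.8 and 20.9 CPM in fetal, 41.9, 38.2 and 38.7 CPM in neonatal and 94.8, 80.3 and 86.5 CPM in adult libraries. Every neonatal library lay above every fetal one, and every adult library above both. In the first step its log2 fold change was 0.66 (SE 0.112) and the adjusted p was 0.00227 in edgeR's test. In the second step Myd88 had a log2 fold change of 1.14 (SE 0.111) and an adjusted p of 2.11e-05 in edgeR's test. Over the whole interval the rise was 3.48-fold, which with Tlr3 and Ly96 (5.07-fold) made the 3 smallest of the 10.

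The inflammasome genes were low in fetal and neonatal cultures and far higher in adult ones. Nlrp3 (chromosome 10, 45893018 to 45917287, plus strand), the sensor, was at 5.99, 4.98 and 6.59 CPM in fetal, 5.39, 4.46 and 5.37 CPM in neonatal and 62.0, 52.7 and 54.0 CPM in adult libraries. Fetal and neonatal libraries overlapped, and every adult library was far above both. It was the only one of the 10 genes whose neonatal mean was below its fetal mean, a difference that was not called, with a log2 fold change of -0.21 (SE 0.139) and an adjusted p of 0.268 in edgeR's test. The adult level exceeded the neonatal level 11.1-fold, with a log2 fold change of 3.47 (SE 0.135) and an adjusted p of 8.58e-08 in edgeR's test. Casp1 (chromosome 8, 2605743 to 2614633, plus strand), the protease, had 1, 5 and 13 fetal counts, or 0.0540, 0.220 and 0.691 CPM, and was at 1.27, 0.651 and 1.17 CPM in neonatal and 30.8, 33.9 and 33.2 CPM in adult libraries. Neonatal replicate 2 lay just below fetal replicate 3, so these ages overlapped. The test called the first step, with a log2 fold change of 1.65 (SE 0.541) and an adjusted p of 0.0401 in edgeR's test, but the call was lost when most single libraries were left out. The second step was 32.1-fold, with a log2 fold change of 5.01 (SE 0.372) and an adjusted p of 4.18e-06 in edgeR's test.

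**Figure D2:**
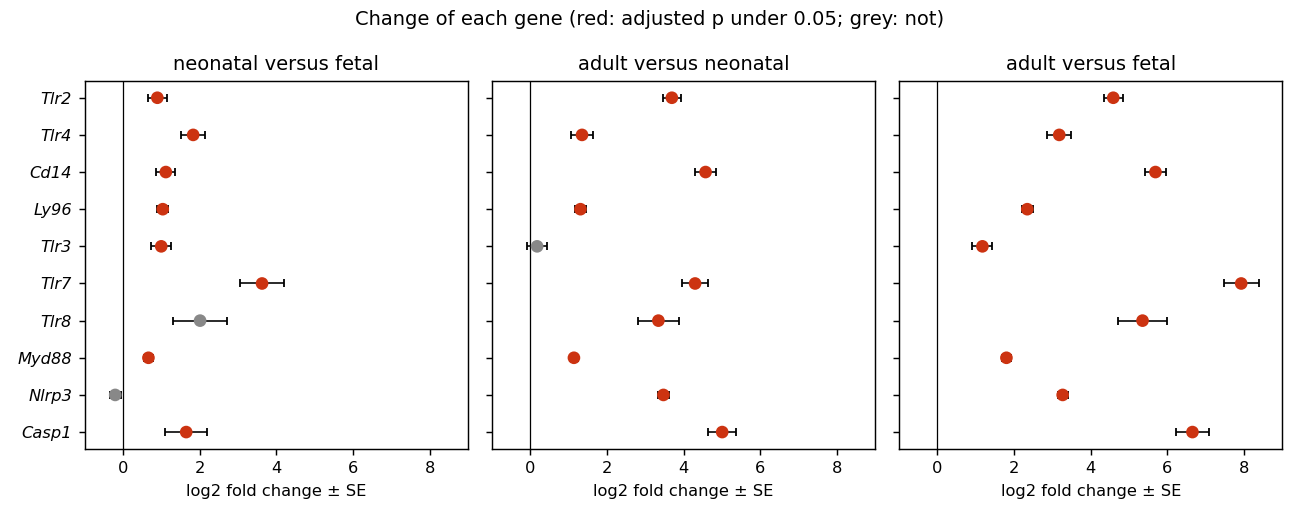
Log2 fold change with its SE for each gene in each pair of ages, from the fit of all 9 libraries (red where the adjusted p was under 0.05, grey where it was not). Grey points are Tlr8 and Nlrp3 from fetal to neonatal and Tlr3 from neonatal to adult, and the adult-to-fetal changes run from 1.17 (Tlr3) to 7.92 (Tlr7).

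Leaving out fetal replicate 3 raised the fold changes of the genes that this library held highest and lowered those it held lowest. Tlr7, with 1 and 0 counts in the remaining fetal libraries, was then at least 10.4-fold higher in neonatal cultures, and Tlr8, with 0 and 3 counts, at least 5.61-fold, both against a floor of 3 counts per fetal library. From fetal to neonatal, the log2 fold change of Casp1 became 2.73 and that of Tlr3 fell to 0.72. Tlr8 then passed the test (edgeR adjusted p = 0.00716), which made 9 of 10 genes called, with Nlrp3 at -0.11 (edgeR adjusted p = 0.570) the exception. Tlr2 went from 0.89 to 1.32, Tlr4 from 1.83 to 2.29 and Cd14 from 1.11 to 1.53. Ly96 went from 1.03 to 0.97 and Myd88 from 0.66 to 0.55. Adult against fetal, all 10 remained called without this library. Tlr7 was at least 205-fold and Tlr8 at least 57.6-fold higher against the same floor, and the log2 fold changes of the other 8 ran from 0.89 (Tlr3) to 7.74 (Casp1). Fetal replicate 3 also had the highest fetal macrophage marker sum, whose part in these differences was not tested.

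Other calls of the first step were close to the threshold. Tlr2 lost its call without fetal replicate 1 (edgeR adjusted p = 0.0602), fetal replicate 2 (0.0561), neonatal replicate 2 (0.0691) or neonatal replicate 3 (0.0678). Tlr3 lost its call without neonatal replicate 2 (edgeR adjusted p = 0.0513) or neonatal replicate 3 (0.0501). For Casp1 the adjusted p ran up to 0.127 among the fits without 1 library. In contrast to the first step, all member calls that involve adult cultures were the same under the 15 alternatives tried.

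Levels of different genes were compared per kilobase of exon (CPM per kilobase). In fetal libraries Myd88 (9.70 to 12.9) and Ly96 (9.83 to 11.8) were the highest and overlapped. Cd14 followed at 5.33 to 11.1, overlapping both. In adult libraries Cd14 led at 329.9 to 418, followed by Ly96 at 50.4 to 59.6 and Tlr2 at 47.5 to 52.6, which overlapped each other. Below them lay Myd88 at 37.2 to 43.9, Casp1 at 23.7 to 26.1 and Nlrp3 at 13.7 to 16.1, without overlap. Tlr7 at 7.07 to 9.65, Tlr4 at 6.36 to 7.79 and Tlr3 at 4.85 to 7.10 overlapped in turn, and Tlr8 was lowest at 1.63 to 3.48. The order thus moved: Cd14 went from overlapping with Myd88 in fetal libraries to lying far above it in adult libraries, and Casp1 went from below Nlrp3 to above it. The value for Ly96 rests on its short exon model.

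The likeness of pattern was measured as the Pearson correlation of log2 CPM over the 9 libraries, which fall in 3 ages and share their depth, so it is given as a description. Tlr2 and Cd14 correlated with each other at 0.998, and for both the most similar genes outside the set were Ptpn6, a phosphatase of blood cells, and Necap2 (0.998 to 0.999). Tlr7 was most like Itgam, the integrin CD11b, and Laptm5 (0.998 and 0.997), and Casp1 most like Btk, a kinase of B cells and myeloid cells, and Aif1, also called Iba1 (both 0.998). Tlr8 was most like Parvg (0.995) and Cyth4 (0.992). Tlr4 was most like Fam69a (0.995) and Cd47 (0.992), Ly96 like Hsd11b1 (0.998) and Ralgds (0.997), Myd88 like Glmp and Abtb1 (both 0.998), and Nlrp3 like Prdx5 (0.998) and Slc23a2 (0.997). Tlr3 had its closest genes in Islr (0.999) and Inpp5k (0.992), and its correlations with the other 9 genes ran from 0.464 (Nlrp3) to 0.802 (Ly96).

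The genes were set beside 15 markers of macrophages, such as Csf1r, Cd68, Adgre1 and C1qa. From fetal to adult all 15 markers rose, with a median log2 change of 7.68 both as fitted and with Cd163, which had no count in any fetal or neonatal library, at its bound. Over the 14 other markers the changes ran from 5.83 (Adgre1) to 8.82 (Lyz2), a range that Tlr7 (7.92) and Casp1 (6.65) reached and the other 8 genes did not. Without fetal replicate 3, Ptprc and Tyrobp were also at or under 3 counts in both fetal libraries. The 12 remaining markers then ran from 7.02 (Adgre1) to 11 (Lyz2), where Casp1 stood at 7.74, Tlr7 was at least 205-fold higher, and Cd14 stood at 6.10. From neonatal to adult the 14 markers ran from 4.17 (Csf1r) to 6.23 (Tyrobp), and Tlr7 (4.30), Cd14 (4.57) and Casp1 (5.01) reached that range. Tlr3, Myd88, Ly96 and Tlr4 changed by 0.18, 1.14, 1.31 and 1.35 in that step. From fetal to neonatal, 10 of the 15 markers were called higher, with a median of 2.10 (2.14 without Cd163), and 14 of 15 were called without fetal replicate 3. The shares of all genes tested that were called higher were 18.3% in that step (21% without fetal replicate 3) and 34.9% from fetal to adult.

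Per 1000 CPM of summed macrophage markers, Casp1 was at 6.26 ± 1.84 CPM in neonatal and 6.03 ± 0.793 in adult libraries (SD, n = 3), and the ages overlapped. Tlr7 was at 9.41 ± 0.693 and 5.51 ± 0.466, and Cd14 at 147 ± 2.29 and 104 ± 5.24, with every adult library below every neonatal one. The ratio of Myd88 went from 243 ± 1.12 to 16.3 ± 3.96, that of Tlr3 from 106 ± 7.54 to 3.69 ± 1.41, that of Ly96 from 38.3 ± 3.25 to 2.89 ± 0.739 and that of Tlr4 from 57.3 ± 7.72 to 4.44 ± 1.10. The other 3 genes lay between these, with Tlr2 at 62.7 ± 8.96 and 24.3 ± 2.85, Nlrp3 at 31.1 ± 2.77 and 10.5 ± 2.73, and Tlr8 at 5.08 ± 0.744 and 1.51 ± 0.317. Between neonatal and adult libraries Casp1, Cd14 and Tlr7 thus kept closest to the marker sum, and Myd88, Tlr3, Ly96 and Tlr4 lagged furthest behind it. In fetal libraries, where the marker sum was small and uneven, the ratio of Cd14 ran from 251 to 1022, that of Casp1 from 6.21 to 28.1 and that of Tlr7 from 0 to 6.21. The part of macrophages in the results for any of the 10 genes was not tested. Of the markers of other leukocytes, those of neutrophils and mast cells stayed at or below 13.4 CPM and those of dendritic cells at or below 14.6 CPM in every library. Of genes used as lymphocyte markers, Cd4 had a mean of 99.7 CPM and Cd8a of 14.4 CPM in adult libraries, where Cd79b, Ms4a1 and Cd3d had no count.

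**Figure D3:**
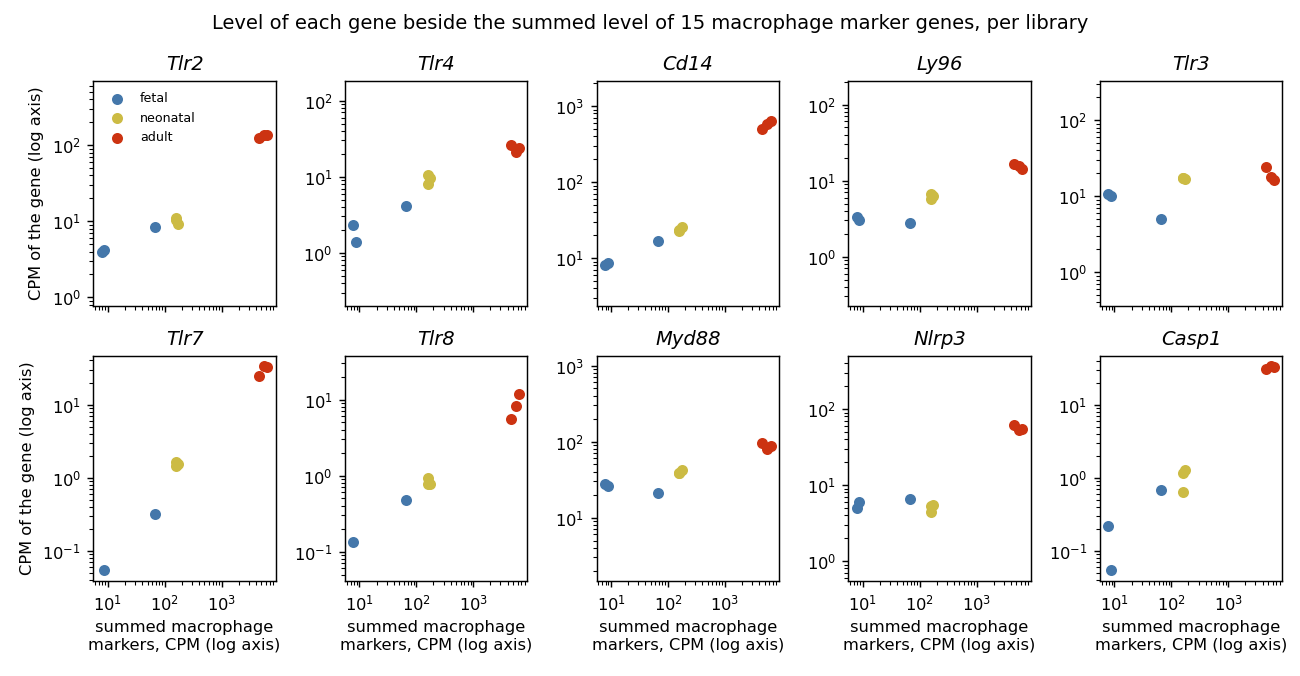
Level of each gene (CPM, log axis) against the summed level of 15 macrophage markers (CPM, log axis) in each library, coloured by age. Libraries with no count, 1 fetal library each for Tlr7 and Tlr8, are not drawn. Between neonatal and adult libraries 9 of the 10 genes climb with the marker sum, Casp1, Cd14 and Tlr7 by the largest folds, while Tlr3 is level there.

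Beyond the 10 genes, 97 other genes of the same pathway were listed in 8 groups, with earlier results of these data known. Of these 97, 86 were in the count table and 72 could be tested. From fetal to neonatal 28 were called higher and 5 lower, with a median log2 fold change of 0.45, where 18.3% of all genes tested were higher and 18% lower. From fetal to adult 57 were higher and 6 lower (median 2.45), against 34.9% and 35.5% of all genes. From neonatal to adult 50 were higher and 6 lower (median 1.69), against 31.6% and 31.8% of all genes. Some of the 72, among them Tlr1, Nlrc4, Nod2, Il18, P2rx7 and Il1a, passed the filter only because of the adult libraries. The counts of rises into adult cultures therefore describe the list and do not test it. Without fetal replicate 3, 73 could be tested, and 36 were higher and 4 lower in the first step (21% and 19.6% of all genes) and 59 higher and 5 lower from fetal to adult (37.3% and 37.5%). Setting Tlr1 and Ly86, which were at or under 3 counts in every fetal library, to their bounds left these medians as they were. The median over all genes tested was -0.01 in each comparison with all 9 libraries.

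Of the other Toll-like receptors, 3 could be tested. Tlr6, a partner of Tlr2, rose in both steps, by 0.89 and 1.62 on the log2 scale, and Tlr5, the flagellin receptor, rose by 0.93 in the first step and stood at -0.29 in the second, which was not called (edgeR adjusted p = 0.200). Tlr1, another partner of Tlr2, had 2, 0 and 3 counts in fetal libraries and was at least 17.7-fold higher in adult ones, taking 3 counts in each fetal library as the floor. Tlr9, an endosomal DNA sensor, had 1, 2 and 0 counts in fetal, 2, 2 and 1 in neonatal and 2, 7 and 9 in adult libraries. Tlr10, Tlr11 and Tlr12 had at most 2 counts in any library. Among 9 tested proteins that help ligand delivery or receptor folding, 5 rose in the first step, 7 rose and 1 fell from fetal to adult, and 6 rose in the second step. Of all genes tested, 18.3% rose in the first step, 34.9% rose and 35.5% fell from fetal to adult, and 31.6% rose in the second. Without fetal replicate 3, 7 rose in the first step (all genes: 21%), and 8 rose and 1 fell from fetal to adult (37.3% and 37.5%). Lbp, the serum protein that loads lipopolysaccharide onto Cd14, had the largest fitted adult-to-fetal rise of the 72 tested: it was at 4.10, 4.50 and 1.22 CPM in fetal, 33.7, 34.4 and 34.0 CPM in neonatal and 1279, 1082 and 979 CPM in adult libraries. The libraries of each age were apart from those of the next by more than their spread, and Lbp was higher in adult than in fetal cultures by 8.39 on the log2 scale (SE 0.389, adjusted p = 2.38e-07 by edgeR's quasi-likelihood test), and by 8.01 without fetal replicate 3. Ly86, a partner of the Toll-like protein Cd180, had at most 3 counts in a fetal library and was at least 142-fold higher in adult cultures against that floor. Hmgb1, a damage signal known to be abundant in most cells, had at most 2 counts in any library, a value that may not stand for its expression. Unc93b1, which carries the endosomal receptors to their compartment, rose by 2.68 from neonatal to adult.

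Among 19 tested adaptors, kinases and transcription factors, 6 rose and 1 fell in the first step (all genes: 18.3% and 18%), and 12 rose and 4 fell in the second (all genes: 31.6% and 31.8%). Irf5, a transcription factor downstream of Myd88, rose by 1.16 and then by 2.77, and Pik3ap1, an adaptor to PI3 kinase, rose by 2.60 in the second step. Irf7, the interferon regulator used by Tlr7, rose by 1.28 in the first step. Chuk, which encodes the kinase IKK-alpha, went the other way and fell in both steps (-0.29 and -0.75), and Tab2, an adaptor of the kinase TAK1, fell by 0.75 in the second. Of the 9 tested inhibitors of the pathway, 4 rose and none fell in the first step, and 6 rose and 1 fell in the second. Irak3, which holds back signalling below Myd88, rose by 2.14 in the first step and exceeded its fetal level by 3.26 in adult cultures. Ptpn6 and Dok3, both signalling brakes of blood cells, rose by 5.10 and 6.29 from neonatal to adult, and Cyld, a deubiquitinase, fell by 0.58.

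Around the inflammasome, all 5 tested sensors and adaptors rose from neonatal to adult, where 1 had risen and 1 had fallen in the first step (2 and 1 without fetal replicate 3). Nlrc4 and Nod2, with at most 7 and 10 counts in any earlier library, were tested only because of the adult libraries. Their rise into adult cultures therefore partly follows from the filter, which left out Mefv. Of all genes tested, 31.6% rose and 31.8% fell from neonatal to adult. In the first step 18.3% rose and 18% fell (21% and 19.6% without fetal replicate 3), so 1 and 1 of 5 were close to these shares. Pycard, the adaptor that joins Nlrp3 to Casp1, was at 4.97, 3.92 and 3.67 CPM in fetal, 6.38, 5.34 and 5.44 CPM in neonatal and 33.7, 46.2 and 51.2 CPM in adult libraries. The neonatal libraries of Pycard lay just above the fetal ones and the adult ones far above both. It rose by 2.93 in the second step (SE 0.182, edgeR adjusted p = 1.42e-06). Nlrp6 and Nlrp12 had no counts, and Mefv, the pyrin gene, had 6 to 8 counts in fetal, 3 to 7 in neonatal and 0 to 2 in adult libraries. Nlrp1a, another sensor, first fell by 0.60 and then rose by 3.68, and Nod1, a sensor of peptidoglycan, rose by 1.36 and reached 2.55 above fetal cultures. Of 13 partners and effectors, 7 rose in the first step (all genes: 18.3%), and 8 rose and 1 fell in the second (31.6% and 31.8%). Without fetal replicate 3, 10 rose in the first step (all genes: 21%). Nek7, the kinase that Nlrp3 needs to assemble, rose by 0.87 and then fell by 0.77, and its adult and fetal levels were not told apart by the test (log2 difference 0.10, edgeR adjusted p = 0.443). Il18, a substrate of caspase-1, rose by 5.28 in the second step, as did Ctsb, a lysosomal protease, by 2.47. Il1b, the other substrate, and Gsdmd, the pore protein cut by caspase-1, are added here after their values were seen: Il1b was at 0.605, 0.697 and 0.647 CPM in neonatal and 58.5, 13.9 and 23.1 CPM in adult libraries, and Gsdmd rose by 0.74 in the second step. Adult replicate 1 had the highest adult level of Il1b and of Nlrp3 and the lowest of Casp1. Of 5 tested inhibitors of the inflammasome or its cytokines, Il18bp, which binds interleukin-18, rose by 1.07 and then 3.06. Serpinb1a, an inhibitor of caspase-1 activation, fell by 2.11 in the first step and rose by 3.72 in the second. Without fetal replicate 3 their first-step log2 fold changes were 0.80 (Il18bp) and -1.45 (Serpinb1a).

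Target genes of the pathway were read from a list of 14, of which 9 could be tested. In the first step 2 rose and 2 fell, shares close to the 18.3% and 18% of all genes: Icam1, an adhesion molecule, by 1.18 and Ccl2, a monocyte chemokine, by 1.38, against Ptgs2, the inducible cyclooxygenase, by -3.42 and Vcam1, an adhesion molecule, by -1.99. Without fetal replicate 3 the call of Vcam1 was lost (edgeR adjusted p = 0.0971), and Ccl2 stood at 2.21. In the second step 8 rose and none fell, with a median of 4.77, against 31.6% and 31.8% of all genes. Cxcl1, a neutrophil chemokine, was at 13.4, 12.1 and 12 CPM in neonatal and 657, 311 and 223 CPM in adult libraries, which edgeR fitted as a log2 difference of 4.99 (SE 0.400, adjusted p = 9.96e-06). Adult replicate 1 was again the highest for Cxcl1. Among the 10 genes it was the highest adult library for Tlr3, Tlr4, Ly96, Myd88 and Nlrp3 and the lowest for Tlr2, Tlr7, Tlr8, Cd14 and Casp1. The other 5 had too few counts to be tested. Ccl5, a chemokine, had no count in fetal or neonatal libraries and 1, 17 and 10 counts in adult ones. Nos2, the inducible nitric oxide synthase, had at most 1 count in an earlier library and 7, 2 and 4 in adult ones. Tnf and Il12b, which encode inflammatory cytokines, had 1 count each over all 9 libraries, and Ifnb1, the interferon beta gene, had none.

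**Figure D4:**
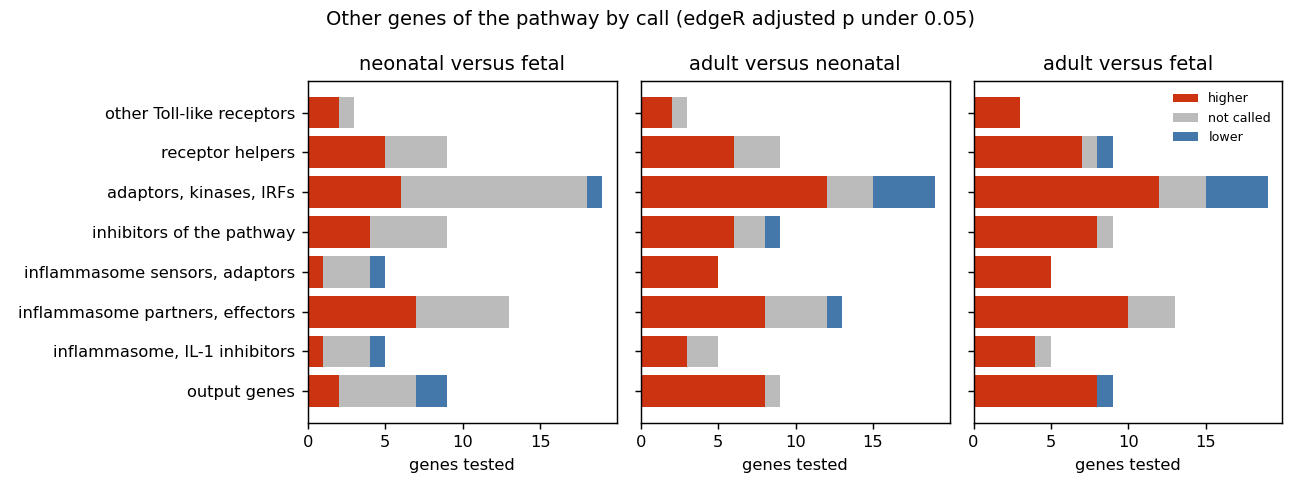
Number of tested genes in each of the 8 other groups of the pathway that were called higher, called lower or not called in each pair of ages. From neonatal to adult most groups are mainly called higher, and the genes called lower in that step are 6 of 72.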

How the data were processed

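RNA sequencing counts were deposited for 9 libraries, 3 per age. The authors counted reads per gene, per the file headers, with featureCounts 1.6.3 on an rn6 annotation, giving only annotation and output options, so strand was not used. The submitters' processing notes also name FastQC, Trimmomatic 0.39, STAR 2.5.2b, Subread 1.6.3 and DESeq2, with no role or order. A second table that the authors deposited holds signal values, counts divided by 1 size factor per library, and was only compared with the counts. Exon lengths came from the deposited count table.

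The test was that of edgeR 4.0.16 (R 4.3.3): filterByExpr by age, TMM scaling and robust quasi-likelihood F tests on all 9 libraries with age as the only term, with Benjamini-Hochberg adjustment over 11337 genes and a threshold of 0.05 for the adjusted p. Library sizes for CPM were scaled by TMM, and a prior count of 2 was used for log2 CPM. The procedure was run on simulated counts with the same spread for all genes and few changed genes, a setting unlike these data. That run does not measure the error of the calls given here. The genes, groups and marker lists were chosen with earlier results of these data known. All 10 genes are named, and of each other group at most 2 called genes per direction with the smallest adjusted p. Counting limits assume independent reads, although no molecular identifiers are named. Alternatives were DESeq2 1.42.0, its size factors, library size only, no filter, a replicate block, fits of the compared ages only and fits without each library. Promoters (GRCr8) were matched by symbol for 9 of the 10 genes. Proteins were not analysed here.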

Additional observations from a re-analysis of the deposited data

How the results depend on the processing

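Of the log2 fold changes of the 10 genes, 1 changed sign under the 15 alternatives run: Tlr3 from neonatal to adult cultures, not called in any of the fits, went from 0.18 to -0.00275 without adult replicate 1 (the range with 1 library left out was -0.00275 to 0.29). With 1 library left out, the genes called between neonatal and fetal cultures ranged from 2476 to 4679 (4114 with all 9), the members called higher from 5 to 9 (8 with all 9) and the other pathway genes called lower from 2 to 5 (5 with all 9). The low counts came without neonatal libraries, and without neonatal replicate 3 the members called were 5. With library size only, without TMM scaling, the median of all genes moved to -0.18 (neonatal against fetal) and -0.12 (adult against fetal), and 29.0% of the called genes were higher in the first comparison, against 50.4% with TMM. Tlr2 and Casp1 then lost their first-step calls (edgeR adjusted p = 0.0733 and 0.0641). They also lost them when the 2 ages were fitted alone (0.0558 and 0.107), and Tlr8 gained its call with DESeq2 (adjusted p = 0.00523). No sign of pairing by replicate number was seen. Deviations from the age means correlated at -0.06 to 0.05 for libraries with the same number and at -0.06 to 0.08 for the others. With 3 libraries per age, this does not exclude a pairing or a shared batch. With a replicate block, 8 members were called higher in the first step, with Casp1 lost (edgeR adjusted p = 0.0609) and Tlr8 gained (0.0391), and no member call with adult cultures changed. Levels without each library in turn, and gene groups without fetal replicate 3, were added after seeing the data. Depth limits Tlr7, Tlr8 and Casp1 in fetal libraries, at 0 to 13 counts.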
